A study of Mus musculus with 20 samples.

Results

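Type 1 conventional dendritic cells (cDC1s) that carried the erythropoietin receptor were compared with cDC1s that did not, both taken from mice given TLI/ATS, a conditioning that combines irradiation of the lymphoid organs with serum against thymocytes and is used to induce transplant tolerance. The comparison comprised 4 of the 20 libraries of the series, 2 of EpoR+ and 2 of EpoR- XCR1+CD8a+ cDC1s, and was chosen by the column names of the count table in which they were counted together. All 4 came from EpoR-tdTomato mice, in which a red fluorescent reporter marks Epor, on day 15 of TLI/ATS, so the EpoR- cells had been irradiated and serum-treated like the EpoR+ cells. The labels give no tissue for these 4 libraries and do not say whether the 2 libraries of a fraction came from separate animals or pools, so p-values measure only the spread between these libraries, which may be technical. Every gene of the table was included, 54532 in all, of which 15627 passed a filter on low counts and were tested. Other libraries of the series served for comparison only: XCR1+CD8a+ cDC1s from C57BL/6 wild types after TLI/ATS on day 15 (n = 2) or untreated (n = 2), and cDC1s of Epor-Xcr1-Cre knockout (cKO) mice, which lose Epor in Xcr1-expressing cells, and of Eporflox/flox control mice. The cKO and control cells were CCR7+XCR1+SIRPa- cDC1s of the spleen and migratory CCR7+XCR1+SIRPa- cDC1s of the peripheral lymph nodes (n = 3 in each of 4 groups).

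The erythropoietin receptor is best known from red cell precursors, where ligand binding activates JAK2 and STAT5 and supports survival and haemoglobin production. cDC1s take up dying cells and cross-present their antigens to CD8 T cells, under the control of the transcription factors IRF8 and BATF3. In the spleen, clearance of aged red cells and recycling of their iron is the task of red pulp macrophages, which depend on the transcription factor Spi-C.

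The EpoR+ libraries held 37337201 and 37923497 counts and the EpoR- libraries 40127646 and 33660774. The correlation of log2 CPM (counts scaled to library size) across genes was 0.985 between the EpoR+ libraries and 0.984 between the EpoR- libraries, against 0.921 to 0.933 between fractions. Genes are not independent replicates in these values. EpoR- library 1 stood apart in digestive enzyme transcripts of the pancreas, which summed to 217 and 181 CPM in the EpoR+ libraries and to 3364 and 235 CPM in the EpoR- libraries, and 2498 genes passed the threshold without that library. Levels of genes are given below in RPKM, counts per kilobase of merged exons scaled to library size, and a log2 fold change (log2FC) is EpoR+ over EpoR- with its standard error (SE). Adjusted p-values come from the quasi-likelihood test of edgeR and were adjusted by the Benjamini-Hochberg method over all genes tested, and a gene called higher or lower had one below 0.05.

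Promoter sequences were matched for 10701 of the 15627 tested genes in a RefSeq table of mouse promoters (build GRCm38.p6, 27025 genes in all). The 250 bases before the start of 5 genes are printed 5′ to 3′ in the direction of transcription, with capitals marking a motif on either strand. Epor (chr9:21963577-21963826, minus strand) is shown because its reporter defined the fractions, with the GATA motif AGATAA 54 bases before the start. C1qb (chr4:136886201-136886450, minus strand) and C1qc (chr4:136892915-136893164, minus strand) are shown because their transcripts were among the most abundant that differed, with the PU box GAGGAA, bound by PU.1, 30 and 193 bases before the start. Ifit3 (chr19:34583279-34583528, plus strand) and Tlr11 (chr14:50357664-50357913, plus strand) both hold the interferon response motif (GAAA, any 2 bases, GAAA), at 156 and 122 bases in Ifit3 and at 122 bases in Tlr11, and moved in opposite directions.
Epor: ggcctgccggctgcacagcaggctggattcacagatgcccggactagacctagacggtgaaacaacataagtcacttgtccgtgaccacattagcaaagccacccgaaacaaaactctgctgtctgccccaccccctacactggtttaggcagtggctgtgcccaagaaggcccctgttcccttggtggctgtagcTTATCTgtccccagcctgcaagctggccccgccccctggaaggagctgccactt
C1qb: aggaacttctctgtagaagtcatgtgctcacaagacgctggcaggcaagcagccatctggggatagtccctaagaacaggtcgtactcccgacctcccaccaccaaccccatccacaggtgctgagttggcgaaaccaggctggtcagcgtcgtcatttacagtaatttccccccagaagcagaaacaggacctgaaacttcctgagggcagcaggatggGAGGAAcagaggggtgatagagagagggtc
C1qc: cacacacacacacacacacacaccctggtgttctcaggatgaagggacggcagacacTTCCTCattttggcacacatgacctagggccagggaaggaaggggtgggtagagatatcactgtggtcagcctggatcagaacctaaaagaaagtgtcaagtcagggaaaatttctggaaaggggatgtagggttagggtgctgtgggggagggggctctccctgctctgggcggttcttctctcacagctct
Ifit3: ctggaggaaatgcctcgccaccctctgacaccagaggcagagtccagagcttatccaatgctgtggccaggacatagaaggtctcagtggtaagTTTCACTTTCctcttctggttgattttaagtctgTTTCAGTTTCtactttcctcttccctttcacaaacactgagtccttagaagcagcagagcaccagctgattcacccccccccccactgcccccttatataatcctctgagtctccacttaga
Tlr11: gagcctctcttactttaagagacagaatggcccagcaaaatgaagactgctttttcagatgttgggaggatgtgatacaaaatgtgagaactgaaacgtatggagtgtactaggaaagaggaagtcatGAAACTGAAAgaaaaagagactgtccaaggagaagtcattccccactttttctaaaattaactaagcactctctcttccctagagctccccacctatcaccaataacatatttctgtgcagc
The GATA motif was present in this window of 8.53% of matched genes that were higher in EpoR+ cDC1s and 7.51% of those lower, against 7.52% of all matched tested genes and 11.4% of all genes in the promoter table. For the PU box these shares were 29.8%, 30.4%, 26.5% and 25.9%, and for the interferon motif 5.15%, 4.76%, 3.44% and 3.46%. The motifs were searched on both strands, and a PU box can overlap an interferon motif. A match is a description of the letters and not of binding.

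EpoR+ cDC1s differed from EpoR- cDC1s in 2606 genes, 16.7% of those tested, of which 1864 were higher (11.9%) and 742 lower (4.75%). Counts of list members below are to be read beside these shares. The direction differed in size as well as in number. The genes that were higher had a median log2FC of 2.30, with quartiles at 1.15 and 4.12, and 752 of them were above 3. The genes that were lower had a median log2FC of -0.78, and 722 of 742 lay between -1.5 and -0.4. The values of the 2 fractions did not overlap in any called gene, nor in 58.2% of all genes tested. Separation of a called gene, where given below, is thus no support beyond its call. When a change of over 2-fold was required by the test, 906 genes remained past the threshold in the higher direction and 7 in the lower. Without EpoR+ library 1 the count was 1496 and without EpoR+ library 2 it was 1454, and 1235 genes passed in each of the 4 fits that left out a library.

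**Figure D1:**
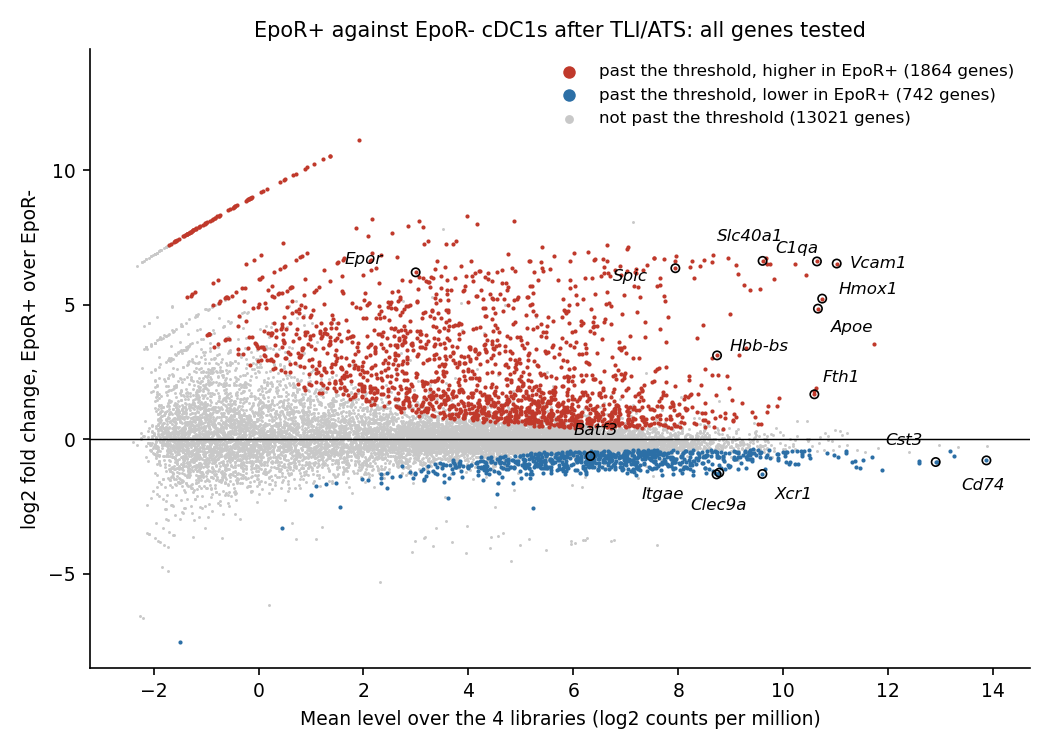
Each point is 1 of the 15627 genes tested, by its mean level over the 4 libraries (log2 CPM) and its log2 fold change, EpoR+ over EpoR-. The 1864 red points (higher) spread up to large fold changes at every level, while 722 of the 742 blue points (lower) lie between -1.5 and -0.4 and 7 lie below -2. The 76 higher genes with 0 counts in both EpoR- libraries lie on the upper diagonal line, where the fitted fold change depends on the fit's prior count.

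The change reached the most abundant transcripts. Genes that were higher took 19.8% and 19.9% of all counts in the EpoR+ libraries, against 5.32% and 5.14% in the EpoR- libraries. Genes that were lower took 18% and 16.6% of counts in the EpoR+ libraries, against 28.8% and 27.8% in the EpoR- libraries. By RPKM, Hmox1 ranked 16 among tested genes in EpoR+ cDC1s and 976 in EpoR- cDC1s. C1qb ranked 18 in EpoR+ cDC1s and 2913 in EpoR- cDC1s, while Cd74, the invariant chain of class II molecules, ranked 1 in both. Of the 100 highest genes in EpoR+ cDC1s, 26 were higher and 30 lower than in EpoR- cDC1s, and 74 also stood among the 100 highest in EpoR- cDC1s.

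Epor followed the sort. It lies on chromosome 9 (21958897 to 21963506, minus strand) and stood at 7.05 and 8.64 RPKM in EpoR+ cDC1s, against 0.0507 and 0.165 RPKM in EpoR- cDC1s. Both EpoR+ libraries were far above both EpoR- libraries, which held 4 and 11 counts, and log2FC was 6.21 ± 0.52 (SE; edgeR adjusted p = 0.00146). Since Epor expression drove the reporter used for sorting, this value checks the labels and is no finding.

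Among genes of erythropoietin receptor signalling, 11 of 30 tested were higher and 2 lower, 7 and 1 of them in each of the 4 fits that left out a library. Epor itself is among the 11 higher genes, and its rise was fixed by the sort. The feedback inhibitor Socs2, a STAT5 target, stood at 2.63 and 2.14 RPKM in EpoR+ cDC1s and at 0.611 and 0.731 RPKM in EpoR- cDC1s (log2FC 1.83 ± 0.21 SE, edgeR adjusted p = 0.00405). Gab1, an adaptor that links the receptor to downstream kinases, stood at 1.79 and 1.93 RPKM in EpoR+ cDC1s and at 0.0793 and 0.082 RPKM in EpoR- cDC1s (log2FC 4.52 ± 0.32 SE, edgeR adjusted p = 0.000768). The EpoR+ libraries lay above the EpoR- libraries for both genes. Jak2, the kinase bound to the receptor, had 49.7 and 47.5 RPKM in EpoR+ cDC1s and 80.1 and 85.9 RPKM in EpoR- cDC1s, a fall of both libraries (log2FC -0.77 ± 0.10 SE, edgeR adjusted p = 0.00603). Stat5a did not pass (log2FC -0.15 ± 0.13 SE, edgeR adjusted p = 0.55), nor did the STAT5 target Cish (log2FC 0.57 ± 0.50 SE, edgeR adjusted p = 0.525). Stat5b passed by a small margin (log2FC 0.41 ± 0.10 SE, edgeR adjusted p = 0.0481) and did not pass in any of the 4 fits that left out a library (edgeR adjusted p of 0.158 to 0.279). Tfrc, the transferrin receptor, rose with log2FC 1.42 ± 0.16 (SE, edgeR adjusted p = 0.00356), and Ptpn6, the phosphatase that switches the receptor off, with log2FC 0.93 ± 0.11 (SE, edgeR adjusted p = 0.00457).

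The labelled cell type was set beside cell type markers, which like the gene lists were chosen with earlier results of these data known. These counts therefore describe the libraries and are no test. Several markers, such as C1qa, Hmox1 and Vcam1, recur in lists below and are the same values there. Of 13 cDC1 markers none was at 0 in any library, and they summed to 10126 and 8697 CPM in the EpoR+ libraries and to 19505 and 18036 CPM in the EpoR- libraries. EpoR+ cDC1s thus held 50.1% of the EpoR- sum, and 12 of 13 markers were lower. Of 15 red pulp macrophage markers none was at 0 in any of the 4 libraries either, and they summed to 23866 and 23614 CPM in the EpoR+ libraries and to 329 and 307 CPM in the EpoR- libraries. This was a 74.7-fold difference of the mean sums, with 15 of 15 markers higher. The EpoR+ libraries therefore carried the transcripts of both cell types. In these bulk libraries fewer cells of a type and less RNA per cell cannot be told apart. Whether macrophages were in the sort, and what part they had in the results below, was not tested. The name EpoR+ cDC1s is used below for the sorted fraction as labelled.

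**Figure D2:**
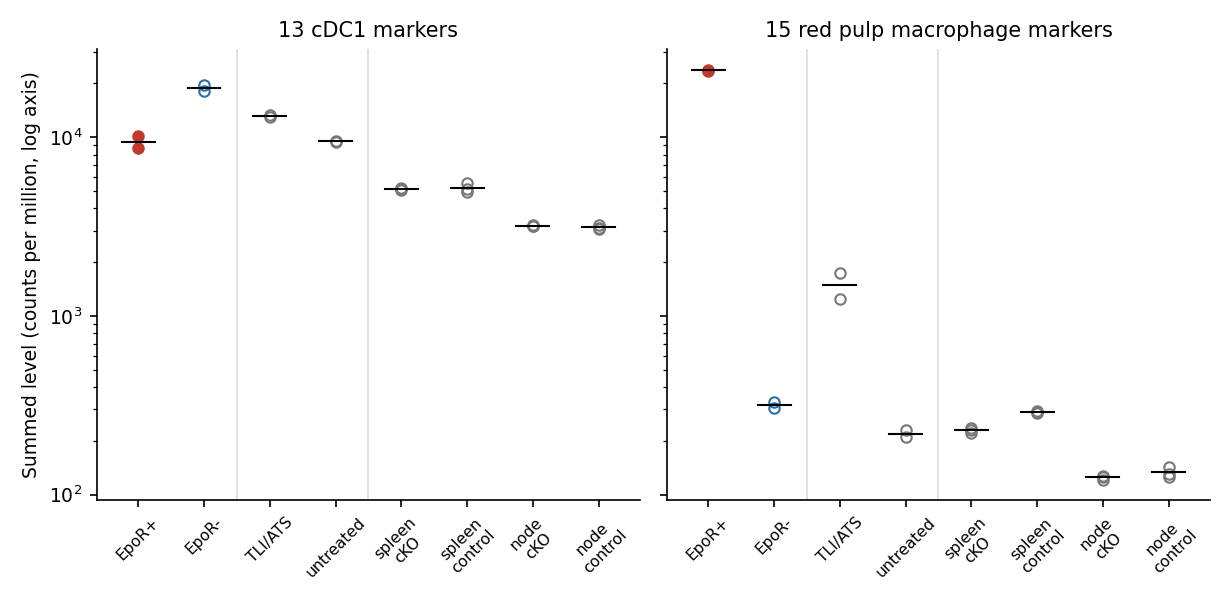
Summed level of 13 cDC1 markers (left) and 15 red pulp macrophage markers (right), in CPM on a log axis, in every library of the series (circles) with the group mean (bars); vertical lines separate tables that were counted and scaled apart. The EpoR+ libraries stand at 23866 and 23614 CPM for the macrophage markers, above both EpoR- libraries, with which they were counted.

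Genes that define cDC1s fell together and by similar amounts. Of 30 tested, 26 were lower, with levels between 36.9% and 64.8% of those in EpoR- cDC1s, and the median log2FC over the list was -1.09, against 0.02 over all genes tested. In the 4 fits that left out a library, 22 of them were lower each time. The member that rose was the inhibitory lectin Clec12a (log2FC 0.60), a call that was not kept in all of those fits. Id2, Nfil3 and Cadm1 did not pass. Xcr1, the chemokine receptor used for the sort, stood at 111 and 91.8 RPKM in EpoR+ cDC1s and at 259 and 238 RPKM in EpoR- cDC1s. Its log2FC was -1.29 ± 0.13 (SE, edgeR adjusted p = 0.00243), and both EpoR+ libraries lay below both EpoR- libraries. Cd8a, the other sort marker, had 88.0 and 78.7 RPKM in EpoR+ cDC1s and 177 and 180 RPKM in EpoR- cDC1s (log2FC -1.10 ± 0.10 SE, edgeR adjusted p = 0.00206). Clec9a, the receptor for dead cells, had 75 and 84.1 RPKM in EpoR+ cDC1s and 177 and 199 RPKM in EpoR- cDC1s (log2FC -1.24 ± 0.12 SE, edgeR adjusted p = 0.00207). The integrin Itgae, the signalling adaptor Clnk, the inhibitory receptor Btla and the cross-presentation factor Wdfy4 fell with log2FC of -1.31, -1.44, -1.25 and -1.13. The fractions did not overlap for any of these 7 genes, as for every called gene.

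The transcription factors of the cDC1 lineage were less uniform. Irf8 stood at 279 and 238 RPKM in EpoR+ cDC1s and at 482 and 445 RPKM in EpoR- cDC1s (log2FC -0.84 ± 0.12 SE, edgeR adjusted p = 0.00732). Zbtb46, a factor of conventional dendritic cells, had 14.9 and 13.7 RPKM in EpoR+ cDC1s and 29.1 and 31.6 RPKM in EpoR- cDC1s (log2FC -1.08 ± 0.11 SE, edgeR adjusted p = 0.00254). Batf3 had 36.9 and 42.1 RPKM in EpoR+ cDC1s and 55.8 and 66.0 RPKM in EpoR- cDC1s, with log2FC -0.62 ± 0.14 (SE, edgeR adjusted p = 0.0354). All 3 factors had lower values in both EpoR+ libraries, but Batf3 passed in 1 of the 4 fits that left out a library (edgeR adjusted p of 0.0159 to 0.189 over them). Id2 did not pass and its fractions overlapped, at 267 and 314 RPKM in EpoR+ cDC1s and 311 and 256 RPKM in EpoR- cDC1s (log2FC 0.03 ± 0.14 SE, edgeR adjusted p = 0.916). Nfil3 was higher in library 2 of either fraction, at 6.45 and 28.7 RPKM in EpoR+ cDC1s and 9.05 and 42.0 RPKM in EpoR- cDC1s. Among wider dendritic cell factors Zeb2, which opposes the cDC1 fate, rose to 8.85 and 9.87 RPKM in EpoR+ cDC1s, against 0.504 and 0.342 RPKM in EpoR- cDC1s (log2FC 4.47 ± 0.23 SE, edgeR adjusted p = 0.00027). Spi1, which encodes PU.1, did not pass (log2FC -0.28 ± 0.11 SE, edgeR adjusted p = 0.179). Sirpa, a receptor that cDC1s lack and cDC2s and macrophages carry, stood at 376 and 353 RPKM in EpoR+ cDC1s and at 6.82 and 5.02 RPKM in EpoR- cDC1s (log2FC 5.94 ± 0.20 SE, edgeR adjusted p = 6.87e-05).

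Transcription factors of macrophages rose, 15 of 25 tested and none lower, with 8 of them higher in each fit that left out a library. Spic, the factor of red pulp macrophages, stood at 105 and 149 RPKM in EpoR+ cDC1s and at 1.42 and 1.67 RPKM in EpoR- cDC1s (log2FC 6.36 ± 0.24 SE, edgeR adjusted p = 0.000114). Nr1h3, the oxysterol receptor LXR alpha, had 65.5 and 79.6 RPKM in EpoR+ cDC1s and 0.691 and 1.49 RPKM in EpoR- cDC1s (log2FC 6.06 ± 0.45 SE, edgeR adjusted p = 0.0027). Both factors were at 65.5 RPKM or more in the EpoR+ libraries and at 1.67 RPKM or less in the EpoR- libraries. Maf rose with log2FC 5.71 ± 0.14 (SE, edgeR adjusted p = 3.03e-05) and Pparg, which acts in lipid handling, with log2FC 3.41 ± 0.14 (SE, edgeR adjusted p = 0.000121). Rxra, the partner of LXR and PPAR receptors, rose less, with log2FC 1.77 ± 0.11 (SE, edgeR adjusted p = 0.000544).

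Surface and secreted genes of red pulp and tissue macrophages were higher in 23 of 24 tested members, at a median log2FC of 6.13, and 20 of them in each fit that left out a library. Vcam1, the adhesion molecule by which red pulp macrophages are recognised, stood at 476 and 451 RPKM in EpoR+ cDC1s and at 5.31 and 4.70 RPKM in EpoR- cDC1s (log2FC 6.53 ± 0.13 SE, edgeR adjusted p = 2.62e-05). Adgre1, the F4/80 antigen, had 345 and 341 RPKM in EpoR+ cDC1s and 4.65 and 5.07 RPKM in EpoR- cDC1s (log2FC 6.14 ± 0.12 SE, edgeR adjusted p = 2.62e-05). Csf1r, the receptor for the macrophage growth factor, had 551 and 564 RPKM in EpoR+ cDC1s and 9.06 and 7.03 RPKM in EpoR- cDC1s (log2FC 6.11 ± 0.17 SE, edgeR adjusted p = 4.73e-05). In all 3 genes the spread within a fraction was small beside the gap between fractions. Cd163, the receptor for haemoglobin bound to haptoglobin, Mrc1, the mannose receptor, and Siglec1, a sialic acid receptor, rose with log2FC of 6.41, 6.53 and 6.32. Treml4, which splenic cDC1s also carry, rose the least among the surface genes that passed, at 247 and 215 RPKM in EpoR+ cDC1s and 127 and 111 RPKM in EpoR- cDC1s (log2FC 0.96 ± 0.13 SE, edgeR adjusted p = 0.0064).

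**Figure D3:**
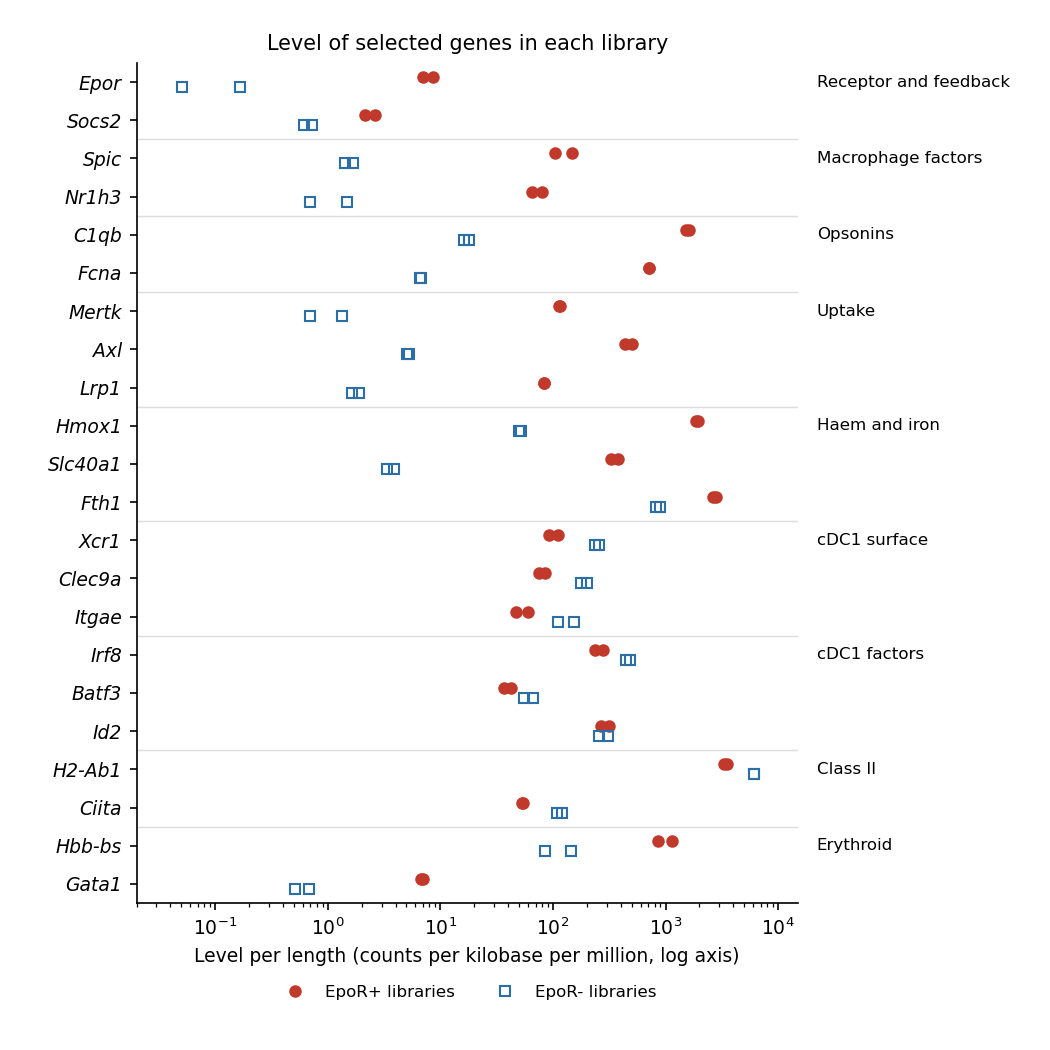
Level of selected genes in each library (RPKM, log axis), with filled circles for the 2 EpoR+ libraries and open squares for the 2 EpoR- libraries. Macrophage, uptake and haem genes are separated by up to 2 decades, cDC1 genes by much less, and the fractions overlap for Id2.

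Soluble opsonins, which coat dying cells and microbes for uptake, and other complement genes were higher in 14 of 19 tested members and lower in none, and 12 passed in each fit that left out a library. C1qa had 1455 and 1516 RPKM in EpoR+ cDC1s and 14.8 and 15.2 RPKM in EpoR- cDC1s (log2FC 6.63 ± 0.12 SE, edgeR adjusted p = 2.62e-05). C1qb had 1508 and 1604 RPKM in EpoR+ cDC1s and 16.1 and 18 RPKM in EpoR- cDC1s (log2FC 6.51 ± 0.13 SE). C1qc had 848 and 832 RPKM in EpoR+ cDC1s and 8.39 and 7.37 RPKM in EpoR- cDC1s (log2FC 6.74 ± 0.13 SE). The 3 chains of C1q, which initiates the classical pathway, therefore moved by nearly the same factor, and no EpoR- library came near an EpoR+ library. Fcna, a ficolin of the lectin pathway, had 712 and 714 RPKM in EpoR+ cDC1s and 6.69 and 6.56 RPKM in EpoR- cDC1s (log2FC 6.75 ± 0.12 SE, edgeR adjusted p = 2.62e-05). C6, a component of the membrane attack complex, had the largest log2FC of the group, 7.13 ± 0.23 (SE), at 66.4 and 81.3 RPKM in EpoR+ cDC1s and 0.446 and 0.611 RPKM in EpoR- cDC1s. Cfp, the alternative pathway activator properdin, stood at 638 and 670 RPKM in EpoR+ cDC1s and at 60.5 and 65.6 RPKM in EpoR- cDC1s (log2FC 3.37 ± 0.11 SE). C3 did not pass (log2FC 1.49 ± 0.67 SE, edgeR adjusted p = 0.264), at 33.9 and 34 RPKM in EpoR+ cDC1s and 18.7 and 5.43 RPKM in EpoR- cDC1s.

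Genes for the uptake of apoptotic cells rose in 14 of 25 tested members, 11 in each fit that left out a library, and 1 fell. Mertk and Axl, receptor kinases that bind phosphatidylserine through bridging proteins, differed by similar factors. Mertk had 114 and 115 RPKM in EpoR+ cDC1s and 1.34 and 0.700 RPKM in EpoR- cDC1s (log2FC 6.80 ± 0.39 SE, edgeR adjusted p = 0.00104). Axl had 508 and 437 RPKM in EpoR+ cDC1s and 5.02 and 5.29 RPKM in EpoR- cDC1s (log2FC 6.52 ± 0.14 SE, edgeR adjusted p = 2.62e-05). Their bridging proteins rose less, Gas6 with log2FC 4.36 ± 0.50 (SE, edgeR adjusted p = 0.00785) and Pros1 with log2FC 2.99 ± 0.29 (SE, edgeR adjusted p = 0.00215). Tyro3, the other kinase of that family, held 2 and 0 counts in the EpoR+ libraries and 0 and 8 counts in the EpoR- libraries and was not tested. Lrp1, an uptake receptor that also clears haem bound to haemopexin, had 84.0 and 83.8 RPKM in EpoR+ cDC1s and 1.90 and 1.63 RPKM in EpoR- cDC1s (log2FC 5.57 ± 0.13 SE, edgeR adjusted p = 2.96e-05). Timd4 and Stab2, receptors for phosphatidylserine, and Itgb5, the integrin chain paired with Itgav, rose with log2FC of 4.53, 5.35 and 5.98, while Itgav itself did not pass (log2FC 0.33 ± 0.14 SE, edgeR adjusted p = 0.19). Cd36, a scavenger receptor that cDC1s carry, was the member that fell, at 78.0 and 61.3 RPKM in EpoR+ cDC1s and 139 and 117 RPKM in EpoR- cDC1s (log2FC -0.88 ± 0.16 SE, edgeR adjusted p = 0.0186), a call that was lost without EpoR+ library 2 (edgeR adjusted p = 0.0533). Mfge8, another bridging protein, did not pass (log2FC 0.02 ± 0.27 SE, edgeR adjusted p = 0.975).

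Haem and iron genes rose in 15 of 18 tested members, and these 15 also passed in each fit that left out a library. Hmox1, which breaks haem open and releases its iron, had 1867 and 1950 RPKM in EpoR+ cDC1s and 49.96 and 51.8 RPKM in EpoR- cDC1s (log2FC 5.23 ± 0.11 SE, edgeR adjusted p = 2.62e-05). Blvrb, biliverdin reductase B, had 67.5 and 75.8 RPKM in EpoR+ cDC1s and 3.74 and 3.57 RPKM in EpoR- cDC1s (log2FC 4.29 ± 0.13 SE, edgeR adjusted p = 5.29e-05). Slc40a1, the iron exporter ferroportin, had 378 and 325 RPKM in EpoR+ cDC1s and 3.85 and 3.35 RPKM in EpoR- cDC1s (log2FC 6.61 ± 0.16 SE, edgeR adjusted p = 2.96e-05). These 3 genes had larger log2 fold changes than the ferritin genes. Fth1, the ferritin heavy chain, was abundant in both fractions, at 2655 and 2781 RPKM in EpoR+ cDC1s and 889 and 819 RPKM in EpoR- cDC1s (log2FC 1.67 ± 0.10 SE, edgeR adjusted p = 0.00037). Ftl1, the light chain, had log2FC 1.53 ± 0.09 (SE), although 34.6% of its exon bases are shared with another gene, which makes its count uncertain. Slc48a1, which moves haem out of the phagolysosome, rose with log2FC 2.69 ± 0.18 (SE, edgeR adjusted p = 0.000689), and Slc11a1, an iron transporter of the same compartment, with log2FC 1.66 ± 0.14 (SE, edgeR adjusted p = 0.00124). The haem exporter Flvcr1 (log2FC 0.36 ± 0.14 SE, edgeR adjusted p = 0.148) and the iron importer Slc11a2 (log2FC 0.51 ± 0.18 SE, edgeR adjusted p = 0.128) did not pass.

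Lipid handling genes and targets of LXR rose in 15 of 21 tested members, 11 in each fit that left out a library. Apoe, a lipoprotein component, had 1432 and 1500 RPKM in EpoR+ cDC1s and 52.4 and 48.9 RPKM in EpoR- cDC1s (log2FC 4.86 ± 0.11 SE, edgeR adjusted p = 2.62e-05). Abca1, which loads cholesterol onto lipoproteins, had 22.8 and 16.6 RPKM in EpoR+ cDC1s and 0.326 and 0.264 RPKM in EpoR- cDC1s (log2FC 6.06 ± 0.24 SE, edgeR adjusted p = 0.000114). Abcg1, a second cholesterol exporter, differed less, at 85.9 and 80.3 RPKM in EpoR+ cDC1s and 38.7 and 27.2 RPKM in EpoR- cDC1s (log2FC 1.33 ± 0.19 SE, edgeR adjusted p = 0.00827). All 3 were higher in both EpoR+ libraries. The LXR target Mylip did not pass (log2FC 0.72 ± 0.26 SE, edgeR adjusted p = 0.14).

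Lysosomal genes rose in 26 of 37 tested members and fell in 2, at a median log2FC of 1.02, with 22 and 2 in each fit that left out a library. Ctsb, a cathepsin, had 997 and 1073 RPKM in EpoR+ cDC1s and 92.0 and 86.8 RPKM in EpoR- cDC1s (log2FC 3.53 ± 0.10 SE, edgeR adjusted p = 4.73e-05). Lgmn, the asparaginyl protease legumain, had 427 and 409 RPKM in EpoR+ cDC1s and 16.3 and 16.9 RPKM in EpoR- cDC1s (log2FC 4.66 ± 0.11 SE, edgeR adjusted p = 2.96e-05). Ctss, the cathepsin that trims the invariant chain, was abundant in both fractions, at 896 and 847 RPKM in EpoR+ cDC1s and 376 and 364 RPKM in EpoR- cDC1s (log2FC 1.24 ± 0.09 SE, edgeR adjusted p = 0.000929). The cathepsin inhibitor Cst3, an abundant transcript of cDC1s, went the other way. Cst3 had 4820 and 3858 RPKM in EpoR+ cDC1s and 8449 and 7162 RPKM in EpoR- cDC1s (log2FC -0.85 ± 0.15 SE, edgeR adjusted p = 0.0162). Of the phagocyte oxidase, the catalytic subunit Cybb rose to 68.9 RPKM in both EpoR+ libraries, against 6.83 and 4.49 RPKM in the EpoR- libraries (log2FC 3.61 ± 0.23 SE, edgeR adjusted p = 0.000673). Its cytosolic subunit Ncf4 fell (log2FC -0.81 ± 0.13 SE, edgeR adjusted p = 0.0132) and did not pass without EpoR+ library 1 (edgeR adjusted p = 0.0814).

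**Figure D4:**
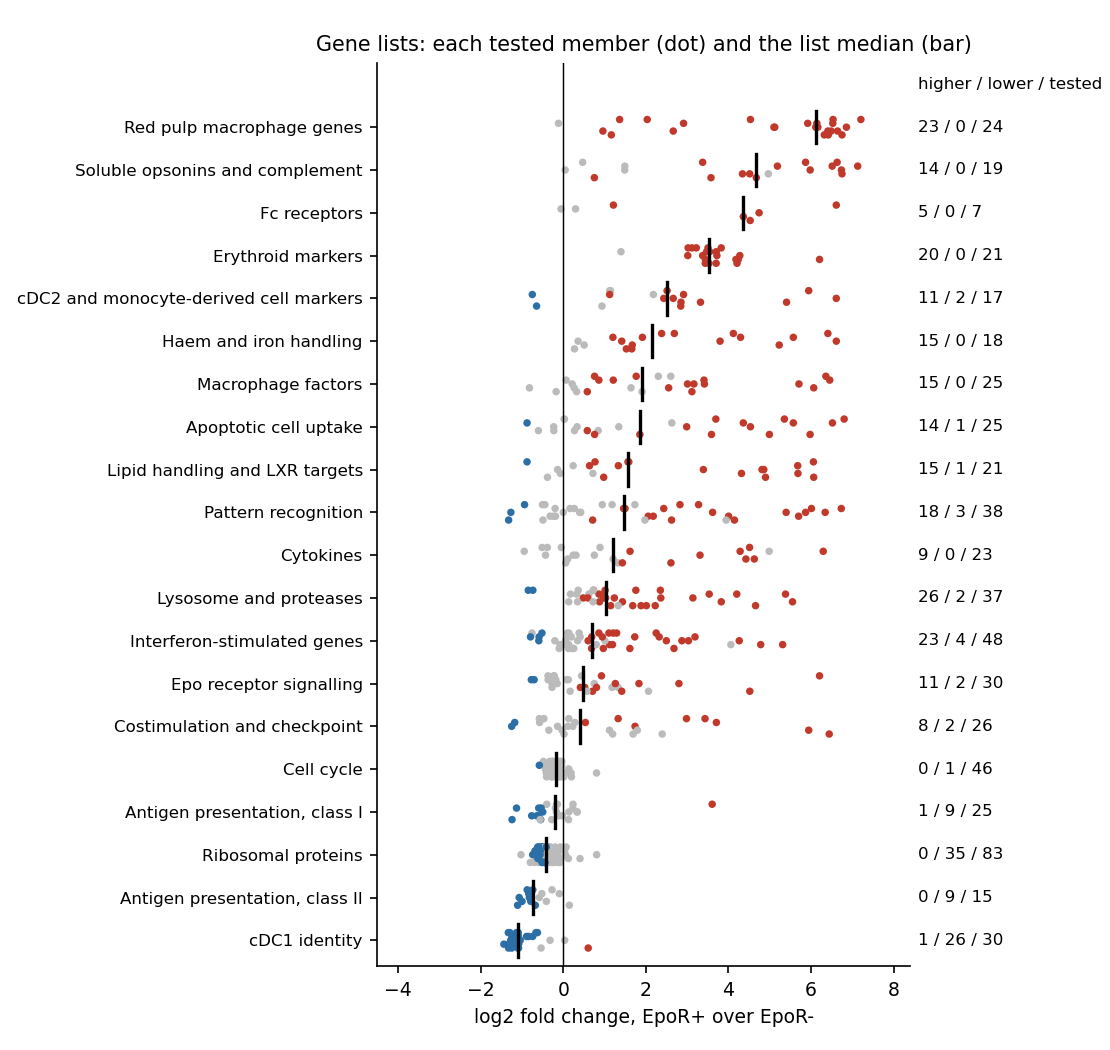
Each dot is 1 tested member of a gene list by its log2 fold change, EpoR+ over EpoR-, with red for higher, blue for lower and grey for not past the threshold; black bars are list medians and the numbers give members higher, lower and tested. The red pulp and tissue macrophage list (median 6.13) and the opsonin list (median 4.67) centre above 4, the macrophage factor list at 1.91, and the cDC1, class II and ribosomal protein lists below 0.

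Antigen presentation did not move as one block. Class II genes fell in 9 of 15 tested members and rose in none, 8 of them in each fit that left out a library. H2-Ab1, a class II chain, had 3523 and 3294 RPKM in EpoR+ cDC1s and 6086 and 6079 RPKM in EpoR- cDC1s (log2FC -0.84 ± 0.09 SE, edgeR adjusted p = 0.00269). Ciita, the master activator of class II genes, had 52.5 and 54.1 RPKM in EpoR+ cDC1s and 108 and 121 RPKM in EpoR- cDC1s (log2FC -1.10 ± 0.10 SE, edgeR adjusted p = 0.00199). Both EpoR+ libraries lay below both EpoR- libraries for either gene. Class I chains did not pass, H2-K1 with log2FC 0.24 ± 0.16 (SE, edgeR adjusted p = 0.4), H2-D1 with 0.23 ± 0.10 (SE, edgeR adjusted p = 0.182) and B2m with 0.34 ± 0.09 (SE, edgeR adjusted p = 0.0606). Of 25 class I and cross-presentation genes tested 9 fell and 1, the oxidase subunit Cybb described above, rose. Wdfy4 and Clec9a were the 2 that fell in each fit that left out a library.

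Of 8 stimulatory ligands tested, 1 was higher and none lower, near the shares over all genes tested (11.9% higher and 4.75% lower). Tnfsf18, the ligand of GITR on T cells, had 6.41 and 5.78 RPKM in EpoR+ cDC1s and 0.317 and 0.619 RPKM in EpoR- cDC1s, with both EpoR+ libraries above both EpoR- libraries (log2FC 3.71 ± 0.39 SE, edgeR adjusted p = 0.00305). Cd80, Cd86 and Cd40, ligands that activate T cells or dendritic cells, did not pass. Cd80 had 11.8 and 17.4 RPKM in EpoR+ cDC1s and 9.57 and 17 RPKM in EpoR- cDC1s (edgeR adjusted p = 0.86), Cd86 had log2FC 0.28 ± 0.10 (SE, edgeR adjusted p = 0.115) and Cd40 had log2FC -0.14 ± 0.20 (SE, edgeR adjusted p = 0.724). The inhibitory ligand Cd274 (PD-L1) had 21.5 and 33.8 RPKM in EpoR+ cDC1s and 7.30 and 18.2 RPKM in EpoR- cDC1s and did not pass either (log2FC 1.12 ± 0.53 SE, edgeR adjusted p = 0.273). Among 26 costimulation and checkpoint genes tested, 8 were higher and 2 lower, 7 and 2 in each fit that left out a library. Vsir, the inhibitory ligand VISTA, had 103 and 104 RPKM in EpoR+ cDC1s and 43.0 and 39.7 RPKM in EpoR- cDC1s (log2FC 1.33 ± 0.10 SE, edgeR adjusted p = 0.000906). Siglece, an inhibitory sialic acid receptor, had 120 and 132 RPKM in EpoR+ cDC1s and 1.99 and 0.901 RPKM in EpoR- cDC1s (log2FC 6.44 ± 0.45 SE, edgeR adjusted p = 0.00231). Havcr2, the receptor TIM-3 that cDC1s carry, fell to 91.8 and 90.0 RPKM in EpoR+ cDC1s, against 194 and 216 RPKM in EpoR- cDC1s (log2FC -1.18 ± 0.10 SE, edgeR adjusted p = 0.00166). Its ligand Lgals9 rose (log2FC 1.74 ± 0.14 SE, edgeR adjusted p = 0.00122), so the members that passed moved in both directions, while 16 of 26 did not pass.

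Tolerance and TGF-beta genes were higher in 8 of 26 tested members and lower in none, 5 in each fit that left out a library. The shares over all genes tested were 11.9% higher and 4.75% lower. Itgb8, the integrin chain that activates latent TGF-beta, was near absent at this depth, with 2 and 0 counts in the EpoR+ libraries and 4 and 0 counts in the EpoR- libraries. Tgfb1 was at 108 and 103 RPKM in EpoR+ cDC1s and at 83.3 and 73.0 RPKM in EpoR- cDC1s, which did not pass (log2FC 0.43 ± 0.11 SE, edgeR adjusted p = 0.0524). The receptors Tgfbr1 and Tgfbr2 rose with log2FC 1.43 ± 0.14 (SE, edgeR adjusted p = 0.00205) and 1.65 ± 0.12 (SE, edgeR adjusted p = 0.000851). Il10 was uneven within EpoR+ cDC1s, at 2.18 and 17.8 RPKM, against 0.346 and 0.204 RPKM in EpoR- cDC1s, and did not pass (edgeR adjusted p = 0.0844). Ido1, which degrades tryptophan, stood at 0.205 and 0.445 RPKM in EpoR+ cDC1s and at 1.08 and 1.39 RPKM in EpoR- cDC1s and did not pass (edgeR adjusted p = 0.0935). Ptgs1, a prostaglandin synthase, had 74.3 and 77.6 RPKM in EpoR+ cDC1s and 1.80 and 1.16 RPKM in EpoR- cDC1s (log2FC 5.68 ± 0.26 SE, edgeR adjusted p = 0.000212).

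Cytokine genes were higher in 9 of 23 tested members and lower in none, with 6 higher in each fit that left out a library. Il18 had 103 and 98.0 RPKM in EpoR+ cDC1s and 15.7 and 17.3 RPKM in EpoR- cDC1s (log2FC 2.61 ± 0.12 SE, edgeR adjusted p = 0.000194). Its antagonist Il18bp had 25.5 and 24.4 RPKM in EpoR+ cDC1s and 0.633 and 1.40 RPKM in EpoR- cDC1s (log2FC 4.63 ± 0.42 SE, edgeR adjusted p = 0.00336). The growth factor Igf1 had 35.4 and 28.4 RPKM in EpoR+ cDC1s and 0.466 and 0.345 RPKM in EpoR- cDC1s (log2FC 6.29 ± 0.23 SE, edgeR adjusted p = 9.07e-05). These 3 genes were separated by fraction, like every called gene, while the fractions overlapped for Il12b, which encodes the shared chain of IL-12 and IL-23. Il12b had 24 and 41.6 RPKM in EpoR+ cDC1s and 13.3 and 54.5 RPKM in EpoR- cDC1s (edgeR adjusted p = 0.982).

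Among chemokines and their receptors 16 of 38 tested were higher and 3 lower, 10 and 1 in each fit that left out a library. Ccr3, the receptor for eotaxins, had 238 and 197 RPKM in EpoR+ cDC1s and 2.21 and 2.06 RPKM in EpoR- cDC1s (log2FC 6.67 ± 0.16 SE, edgeR adjusted p = 3.03e-05). Ccl24, one of its ligands, had 30.1 and 36.6 RPKM in EpoR+ cDC1s and 0.934 and 0.873 RPKM in EpoR- cDC1s (log2FC 5.20 ± 0.21 SE, edgeR adjusted p = 0.000114). Cxcr3, which draws cells to interferon-induced chemokines, fell to 24 and 17 RPKM in EpoR+ cDC1s, against 52.8 and 41.1 RPKM in EpoR- cDC1s (log2FC -1.20 ± 0.22 SE, edgeR adjusted p = 0.0202). Fractions were apart for all 3, as for every called gene. Ccr7, which guides dendritic cells to lymph nodes, had 59.2 and 66.7 RPKM in EpoR+ cDC1s and 37.9 and 54.4 RPKM in EpoR- cDC1s and did not pass (log2FC 0.45 ± 0.20 SE, edgeR adjusted p = 0.199). Over all genes tested, 11.9% were higher and 4.75% lower. Of 35 genes linked to CCR7-driven maturation, 7 were higher and 2 lower, 5 and 0 in each fit that left out a library.

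Receptors for IgG rose in 5 of 7 tested members, all 5 in each fit that left out a library. Fcgr1, the high-affinity receptor, had 49.8 and 43.7 RPKM in EpoR+ cDC1s and 0.418 and 0.540 RPKM in EpoR- cDC1s (log2FC 6.61 ± 0.20 SE, edgeR adjusted p = 4.8e-05). Fcgr2b, the inhibitory receptor, did not pass (log2FC 0.30 ± 0.26 SE, edgeR adjusted p = 0.523). Pattern recognition genes were higher in 18 of 38 tested members and lower in 3, and Toll-like receptors split by family member. Tlr7, a sensor of RNA, had 40.7 and 38.7 RPKM in EpoR+ cDC1s and 0.611 and 0.620 RPKM in EpoR- cDC1s (log2FC 6.01 ± 0.13 SE, edgeR adjusted p = 2.62e-05). Tlr3, the sensor of double-stranded RNA by which cDC1s are known, had 47.4 and 36.2 RPKM in EpoR+ cDC1s and 115 and 86.2 RPKM in EpoR- cDC1s (log2FC -1.27 ± 0.20 SE, edgeR adjusted p = 0.0132). Tlr11, a sensor of parasite profilin, fell likewise, at 61.4 and 47.7 RPKM in EpoR+ cDC1s and 149 and 124 RPKM in EpoR- cDC1s (log2FC -1.32 ± 0.17 SE, edgeR adjusted p = 0.0059). Tlr4 and Tlr8 rose with log2FC of 4.00 and 6.34, and Tlr12 fell with log2FC -0.94. Tlr9 did not pass (log2FC -0.23 ± 0.25 SE, edgeR adjusted p = 0.613).

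Interferon-stimulated genes were higher in 23 of 48 tested members and lower in 4, of which 16 and 0 passed in each fit that left out a library. Ifit3, whose promoter with its pair of interferon motifs is printed above, had 27.9 and 21.7 RPKM in EpoR+ cDC1s and 1.17 and 1.42 RPKM in EpoR- cDC1s (log2FC 4.26 ± 0.23 SE, edgeR adjusted p = 0.000281). Rtp4 and Gbp2 rose with log2FC of 5.31 and 2.32. Irf7, the factor that amplifies the interferon response, did not pass (log2FC 0.22 ± 0.13 SE, edgeR adjusted p = 0.332), nor did its relative Irf1.

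Among integrins and adhesion genes 9 of 27 tested were higher and 8 lower, 8 and 4 of them in each fit that left out a library. The shares over all genes tested were 11.9% higher and 4.75% lower. Itga9 and Itgad rose to 48.8 and 46.9 RPKM and to 174 and 185 RPKM in EpoR+ cDC1s, with log2FC of 6.73 and 6.86. Itgal, a chain of LFA-1, had 56.6 and 46.9 RPKM in EpoR+ cDC1s and 104 and 102 RPKM in EpoR- cDC1s (log2FC -0.99 ± 0.12 SE, edgeR adjusted p = 0.00531). Itgb7, the partner of Itgae, fell with log2FC -1.03 ± 0.10 (SE, edgeR adjusted p = 0.00254), and Itgb2, the partner of Itgal, did not pass (log2FC 0.26 ± 0.12 SE, edgeR adjusted p = 0.234).

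Called genes whose level averaged 3 log2 CPM or more in these 4 libraries were also ranked by fold change, leaving out predicted models and pseudogenes. The largest rises in this ranking belonged to genes with few counts in EpoR- cDC1s. Tenm4, a teneurin known from neural development, had 1301 and 1048 counts in the EpoR+ libraries and 2 and 5 counts in the EpoR- libraries (log2FC 8.29 ± 0.42 SE, edgeR adjusted p = 0.000224). Adrb1, the beta-1 adrenergic receptor, had 1529 and 2900 counts in the EpoR+ libraries and 5 and 10 counts in the EpoR- libraries (log2FC 8.12 ± 0.56 SE, edgeR adjusted p = 0.00135). Sema6a, a semaphorin, had 1319 and 1364 counts in the EpoR+ libraries and 6 and 4 counts in the EpoR- libraries (log2FC 7.99 ± 0.25 SE, edgeR adjusted p = 5.37e-05). The EpoR- counts were near the floor, so these folds are large but loosely bounded. At the other end, the C-type lectin Clec1a had the largest fall in this ranking, at 2.09 and 2.37 RPKM in EpoR+ cDC1s and 6.97 and 6.91 RPKM in EpoR- cDC1s (log2FC -1.64 ± 0.16 SE, edgeR adjusted p = 0.00215). The largest fall per length was that of Cd74, with 8101 and 7539 RPKM in EpoR+ cDC1s and 13730 and 13260 RPKM in EpoR- cDC1s (log2FC -0.79 ± 0.09 SE, edgeR adjusted p = 0.00334).

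Markers of other cells were followed through the same fit. Erythroid genes, Epor among them, were higher in 20 of 21 tested members, at a median log2FC of 3.53, and summed to 2696 and 2378 CPM in the EpoR+ libraries and to 306 and 226 CPM in the EpoR- libraries, with none at 0 throughout a fraction. Hbb-bs, an adult globin, had 1138 and 859 RPKM in EpoR+ cDC1s and 146 and 84.5 RPKM in EpoR- cDC1s (log2FC 3.12 ± 0.34 SE, edgeR adjusted p = 0.0073). Gata1, the erythroid transcription factor, had 6.68 and 7.03 RPKM in EpoR+ cDC1s and 0.506 and 0.683 RPKM in EpoR- cDC1s (log2FC 3.53 ± 0.26 SE, edgeR adjusted p = 0.000903). Red cell genes thus rose by a smaller factor than red pulp macrophage genes, and since Epor is itself a gene of erythroid precursors, their part in the Epor difference was not tested. The globins Hba-a1 and Hba-a2 are near-identical copies whose counts are uncertain. Markers of cDC2s and monocyte-derived cells were higher in 11 of 17 tested members and lower in 2 (7 and 0 in each fit that left out a library), summing to 2821 and 2685 CPM in the EpoR+ libraries and 653 and 576 CPM in the EpoR- libraries. This list is not separate from those above, since Fcgr1 is also a red pulp macrophage marker and Itgam a member of the macrophage surface list. The 2 members that fell were Ccr2 and Notch2, with log2FC of -0.75 and -0.65. T cell markers summed to 73.6 and 76.4 CPM in the EpoR+ libraries and 16.3 and 23.5 CPM in the EpoR- libraries. Of 12 tested, 2 were higher, against 11.9% of all genes tested. These were Cd4, which macrophages and dendritic cells can also carry, and Tcf7, and Tcf7 passed in 1 of the 4 fits that left out a library (edgeR adjusted p of 0.0199 to 0.166).

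The genes of the comparison were then looked up in libraries that it did not use. TLI/ATS cDC1s of wild-type mice differed from untreated cDC1s in 465 of 17236 genes tested (2.7%), with 86 higher (0.499%) and 379 lower (2.2%), a count that rose to 4908 without TLI/ATS library 1 and 4679 without TLI/ATS library 2. Of the 1864 genes higher in EpoR+ cDC1s, 1624 were tested there, and 59 were higher and 64 lower after TLI/ATS. The 59 are 3.63% of the EpoR+ genes tested and 68.6% of the 86 genes raised by TLI/ATS. The 64 are 3.94% of the EpoR+ genes tested and 16.9% of the 379 genes that were lower after TLI/ATS. Of all genes tested in both comparisons, 0.598% were higher and 2.01% lower after TLI/ATS. Of the 742 genes lower in EpoR+ cDC1s, 741 were tested there, and 3 were higher and 2 lower after TLI/ATS.

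C1qb had 194 and 187 CPM after TLI/ATS and 11.5 and 14 CPM in untreated cDC1s (log2FC 3.90 ± 0.20 SE, edgeR adjusted p = 0.0039). Hmox1 had 329 and 256 CPM after TLI/ATS and 57.7 and 64.3 CPM in untreated cDC1s (log2FC 2.26 ± 0.21 SE, edgeR adjusted p = 0.0139). In both genes, higher in EpoR+ cDC1s too, both treated libraries stood above both untreated ones. Epor held 236 and 127 counts after TLI/ATS and 0 counts in both untreated libraries. Other genes went the opposite way in the 2 comparisons. Ctsl, a cathepsin with 26.8% of its exon bases shared with another gene, had 17.6 and 13.9 CPM after TLI/ATS and 102 and 107 CPM in untreated cDC1s (log2FC -2.73 ± 0.20 SE, edgeR adjusted p = 0.00811), while EpoR+ cDC1s exceeded EpoR- cDC1s (log2FC 4.20 ± 0.21 SE). S1pr1, the receptor for egress from tissues, had 2.06 and 0.767 CPM after TLI/ATS and 53.8 and 57.2 CPM in untreated cDC1s (log2FC -5.28 ± 0.53 SE, edgeR adjusted p = 0.0173), against log2FC 3.63 ± 0.41 (SE) in EpoR+ over EpoR- cDC1s. Red pulp macrophage markers, C1qb and Hmox1 among them, summed to between 1240 and 1741 CPM after TLI/ATS and between 210 and 229 CPM in untreated cDC1s. T cell markers fell in 19 of 20 tested members after TLI/ATS. The part of macrophages or T cells in these differences was not tested. Apoe, Ctsb and Lgmn, among the most abundant transcripts of EpoR+ cDC1s, did not pass after TLI/ATS (edgeR adjusted p = 0.693, 0.754 and 0.507).

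**Figure D5:**
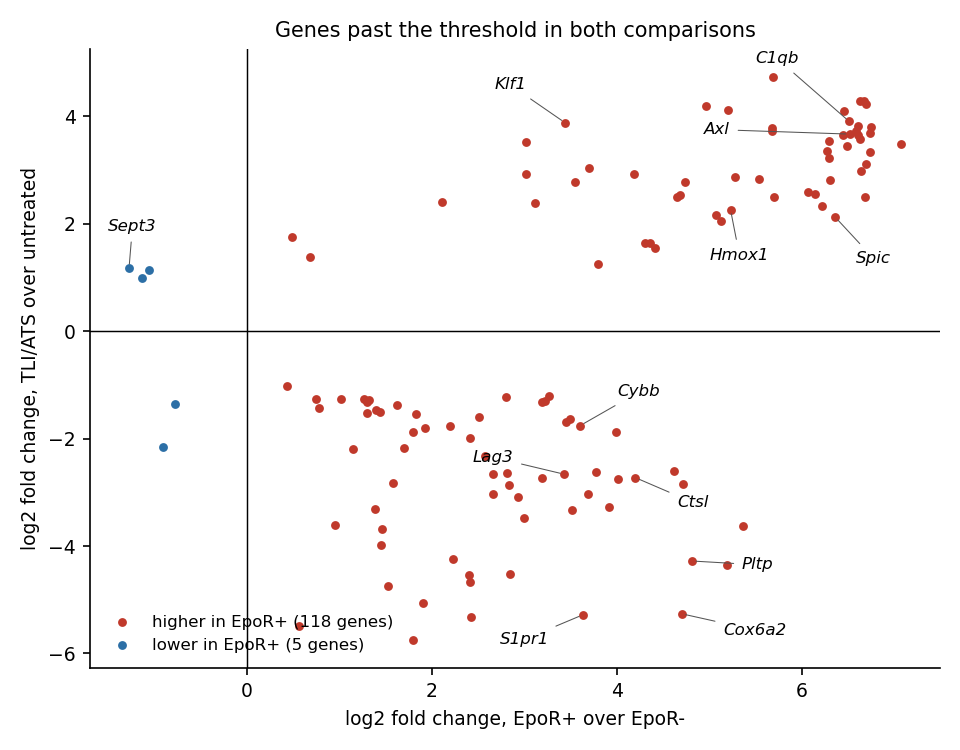
Genes past the threshold in both the EpoR+ against EpoR- comparison (horizontal axis, log2 fold change) and the TLI/ATS against untreated comparison (vertical axis, log2 fold change), which share no library. It shows 118 genes higher and 5 lower in EpoR+ cDC1s and leaves out 5 further higher genes, Epor among them, that had 0 counts in both libraries of a group.

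Epor itself held 0, 2 and 0 counts in spleen cKO cDC1s and 1, 0 and 6 counts in spleen control cDC1s, too few to check the labels there, and 0 counts in each lymph node cKO library and 24, 28 and 4 counts in the lymph node controls. In the spleen 106 of 17362 genes tested differed between cKO and control cDC1s (0.611%), 85 higher (0.49%) and 21 lower (0.121%), and that count was 33, 31 and 57 without cKO library 1, 2 or 3 and 379 without control library 3. Of 1538 genes that were higher in EpoR+ cDC1s and tested there, 9 were higher (0.585%, against 0.586% of all genes tested in both comparisons) and 1 lower in spleen cKO cDC1s. Of 738 genes that were lower in EpoR+ cDC1s and tested there, 11 were higher in spleen cKO cDC1s (1.49%) and none lower. The gene of the higher set that was lower in spleen cKO cDC1s was Spic, at 45, 49.3 and 41.0 CPM in cKO cDC1s and 89.4, 67.1 and 73.1 CPM in control cDC1s (log2FC -0.76 ± 0.15 SE, edgeR adjusted p = 0.0326). No cKO library overlapped a control library for Spic, which did not pass in the lymph nodes (log2FC 0.60 ± 0.15 SE, edgeR adjusted p = 0.163). In the lymph nodes 79 of 17362 genes differed (0.455%), 50 higher (0.288%) and 29 lower (0.167%), with 51 genes without cKO library 1 or without control library 1, and 5 of the 1538 genes were higher (0.325%, against 0.343% of all genes tested in both comparisons) and 1 lower. Of the 738 genes lower in EpoR+ cDC1s, 7 were higher in lymph node cKO cDC1s (0.949%) and none lower, and the difference between these shares was not tested. The gene of the higher set that was lower was Apoe, with log2FC -0.43 ± 0.08 in lymph node cKO over control cDC1s (SE, edgeR adjusted p = 0.0284), and it had log2FC -0.33 ± 0.08 in the spleen without passing (SE, edgeR adjusted p = 0.0929). Red pulp macrophage markers, Spic among them, summed to between 221 and 237 CPM in spleen cKO cDC1s and between 285 and 292 CPM in spleen control cDC1s. This sum is therefore not separate from the Spic difference, and the part of macrophages in that difference was not tested. C1qb was at or below 2.56 CPM in every spleen library and did not pass (edgeR adjusted p = 0.697). In the lymph nodes C1qb had 4.19, 3.09 and 4.55 CPM in cKO cDC1s and 9.17, 8.41 and 8.66 CPM in control cDC1s, groups that did not overlap but did not pass (log2FC -1.15 ± 0.72 SE, edgeR adjusted p = 0.832). The spleen and lymph node cells were gated without SIRPa, carry no treatment in their labels and were counted in another table, so levels are not compared with those of EpoR+ cDC1s.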

How the data were processed

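RNA was measured by sequencing of sorted cDC1s, 4 libraries in the EpoR comparison and 16 beside it. The authors deposited raw counts per gene. Per the file headers, featureCounts 2.0.3 counted reads without strand and in a mode in which a read pair can add 2 counts to a gene, and per the submitters' processing notes reads were aligned to GRCm38 with HISAT2 (2.1.0 for the cKO libraries, which were counted with featureCounts 2.0.8). Overlapping, antisense and near-identical genes therefore share reads. Genes with at least 10 counts (15 in total) by edgeR's expression filter were scaled by TMM and fitted per comparison with robust quasi-likelihood dispersions in edgeR 4.0.16 (limma 3.58.1, R 4.3.3), without the replicate number, and called at a Benjamini-Hochberg adjusted p under 0.05. DESeq2 1.42.0 was an alternative, and the others were normalization, filters, a 2-fold test, leaving out libraries and a replicate block. CPM use TMM-scaled totals. By the totals before TMM scaling, 3 counts, the limit of a count of 0, correspond to 0.0748 to 0.0891 CPM in the 4 libraries. This covers counting error only. Tested on simulated counts of this comparison (15089 genes, 100 changed at each size), the fit recovered 34% of genes changed by 1 log2 unit and 94% of those changed by 2. In the data 16.7% of genes were called, far more than were changed in the simulation, so these shares need not hold for the data. Members and gene lists were chosen with earlier results of these data known. Genes were named as the sort and gate genes, marked members of each list, up to 4 further members per list and direction by fold change, and those largest by level difference or, from a mean of 3 log2 CPM and without predicted models, pseudogenes, immunoglobulin and T cell receptor segments and mitochondrial genes, by fold change. C3, Hba-a2 and the genes in the last section were named after their values were seen. Tables counted apart were not compared by level.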

Additional observations from a re-analysis of the deposited data

How the results depend on the processing

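In the EpoR+ against EpoR- comparison, no named gene changed direction under a setting where it passed either there or in the main fit. Results for genes and lists were followed over the settings in that comparison only. For the TLI/ATS, spleen and lymph node comparisons only the counts of genes past the threshold were followed. The EpoR+ against EpoR- counts moved by over 1.5 times under a test against a 2-fold change (913 genes, 906 higher and 7 lower), under DESeq2 for genes lower (1115) and with the replicate block (5347 genes, 3077 higher and 2270 lower). Same-numbered libraries deviated together (r = 0.596 over 11424 genes), but with 2 pairs and no label that ties them the numbers were not taken as a pairing, and the cause was not tested. Leaving out a library gave 1454 to 2600 genes, 1167 to 1887 higher and 267 to 754 lower, the lowest in all and lower without EpoR+ replicate 2. In the TLI/ATS comparison DESeq2 gave 1324 genes (436 higher, 888 lower), the replicate block 1264 (323 and 941), with same-numbered deviations at r = -0.0919, and leaving out a library 476 to 4908 (103 to 2519 higher, 373 to 2609 lower). In the spleen, no filter gave 436 genes (320 higher, 116 lower), DESeq2 647 (427 and 220), the replicate block 40 (34 and 6) and leaving out a library 31 to 379 (30 to 317 and 1 to 62). In the lymph nodes, no filter gave 170 genes (127 higher), DESeq2 204 (134 higher, 70 lower), leaving out a library 51 to 72 (28 to 47 higher, 22 to 25 lower), and the replicate block 62. Over 540 gene results, 6842 values kept their side of the threshold, 428 no longer passed and 204 newly passed. Of the 204, 87 came with the replicate block, and of the 428, 163 came under the 2-fold test. A change of sign between values that did not pass was not counted. Of 86 list counts, 41 moved by over 1.5 times under the 2-fold test and 40 with the replicate block. With 2 libraries a fraction, changes of 1 log2 unit were often missed in the simulated counts. These held far fewer changed genes than were called here. The causes of these shifts were not tested.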

Other observations

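Several genes differed within the fractions more than between them, and were chosen after their values were seen. Il1b, an inflammatory cytokine, had 36.5 and 212 RPKM in EpoR+ cDC1s and 52.2 and 272 RPKM in EpoR- cDC1s. Klf4, a transcription factor of myeloid cells, had 18.4 and 64.7 RPKM in EpoR+ cDC1s and 8.04 and 28.2 RPKM in EpoR- cDC1s. Cd83, a maturation marker, had 158 and 388 RPKM in EpoR+ cDC1s and 152 and 424 RPKM in EpoR- cDC1s. In each of these 3 genes library 2 of either fraction was the higher one, and none passed between EpoR+ and EpoR- cDC1s.

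Proliferation genes moved little. Of 46 cell cycle genes tested 1 passed, Kif23, a kinesin of cell division, which was lower (log2FC -0.58, edgeR adjusted p = 0.0236) but did not pass in each fit that left out a library. Mki67, a marker of cycling cells, had 22.8 and 21.2 RPKM in EpoR+ cDC1s and 28.1 and 25.4 RPKM in EpoR- cDC1s (log2FC -0.28, edgeR adjusted p = 0.156). Ddit4, a stress-induced inhibitor of mTORC1, had 51.4 and 55.4 RPKM in EpoR+ cDC1s and 2.89 and 2.24 RPKM in EpoR- cDC1s (log2FC 4.38). Ribosomal protein genes were lower in 35 of 83 tested members, at a median log2FC of -0.42, but in 3 of them in each fit that left out a library, and their near-identical copies make single counts uncertain.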
